A study of Homo sapiens with 18 samples.

Results

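The genes described here are 10 members of the NRF2 antioxidant pathway, namely the transcription factor NRF2 (gene NFE2L2), its inhibitor KEAP1, its DNA-binding partner MAFG, and the enzymes HMOX1, NQO1, GCLC, GCLM, TXNRD1, SRXN1 and GPX2. They were taken as the probe sets annotated with exactly 1 of these symbols, with the brightest probe set standing for each gene. That gave 21 probe sets for 10 of the 19775 genes that had such a probe set. Of the 10 members, 9 reached a group mean of 4 on the log2 scale and were tested among 10717 genes, and GPX2 did not.

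Expression was measured in HK-2, an immortalized human line derived from renal proximal tubular epithelium. One set of 9 arrays came from cells exposed to CsA for 12, 24 or 48 h, and the other 9 from cells given only the vehicle for the same times. CsA, commonly short for the immunosuppressant cyclosporin A, is not spelled out in the labels, and they give no dose. Each of the 6 groups had 3 arrays, labelled as biological replicates, and nothing says how the cultures of a replicate were kept apart, so p-values measure the spread between these arrays. All groups shared a defined medium with EGF, hydrocortisone, insulin, transferrin and sodium selenite, selenium being a component of the enzymes TXNRD1 and GPX2. The series belonged to a wider search for expression patterns of kidney toxicity, and the comparison here is CsA against vehicle at each time.

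KEAP1 normally holds NRF2 in the cytoplasm and hands it to a ubiquitin ligase for degradation. When oxidants or electrophiles modify KEAP1, NRF2 is spared, enters the nucleus, pairs with a small MAF protein such as MAFG and binds antioxidant response elements near its target genes. Those targets include the enzymes of glutathione synthesis, the thioredoxin system, quinone reduction and heme breakdown, which proximal tubule cells use against reactive drugs and their metabolites. NRF2 is controlled largely through the stability of its protein, which arrays do not measure.

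All epithelial markers listed (7 of 7) passed the level filter. Of 11 proximal tubule markers measured, 3 passed (DPP4, CDH6 and PAX8), and ANPEP, GGT1, LRP2, CUBN, MME, SLC34A1, SLC5A2 and AQP1 did not. Endothelial markers (0 of 5) and leukocyte markers (0 of 5) did not pass either, while 4 of 7 fibroblast markers did, among them DCN and LUM, and so did 2 of 4 podocyte and 1 of 5 distal nephron markers. Their part in the results was not tested. The mean level of the fibroblast list over its genes lay between 5.20 and 5.91 in the 6 groups.

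The core of the antioxidant response element, TGACNNNGC, was searched on both strands of the promoter windows in RefSeq (GRCh38.p14), each reaching from 250 bases before to 50 bases after a transcription start. The tables held 12 windows for 9 of the 10 members, and 5 of these windows, in 4 members, held a match. Among all 35116 windows of this length, 13.3% did. The stretches with a match are shown because NRF2 and its partners bind this core, with the matched letters in capitals and each read 5′ to 3′ in the direction of its gene.
GCLM (chr1:93909431-93909509, minus strand): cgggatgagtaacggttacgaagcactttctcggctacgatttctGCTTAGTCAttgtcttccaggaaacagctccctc
TXNRD1, first start (chr12:104215635-104215779, plus strand): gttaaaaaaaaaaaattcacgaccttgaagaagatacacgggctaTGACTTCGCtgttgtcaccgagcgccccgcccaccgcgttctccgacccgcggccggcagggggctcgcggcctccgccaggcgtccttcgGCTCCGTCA
TXNRD1, second start (chr12:104286885-104286984, plus strand): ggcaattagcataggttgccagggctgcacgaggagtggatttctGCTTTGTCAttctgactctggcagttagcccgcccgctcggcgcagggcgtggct
GPX2 (chr14:64942813-64942912, minus strand): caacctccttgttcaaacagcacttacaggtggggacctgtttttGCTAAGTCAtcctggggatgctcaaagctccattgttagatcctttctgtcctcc
KEAP1 (chr19:10502772-10502870, minus strand): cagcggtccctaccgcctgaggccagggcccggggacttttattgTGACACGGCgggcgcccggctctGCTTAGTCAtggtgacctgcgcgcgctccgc
The match of GCLM begins 34 bases before the start and that of GPX2 begins 122 bases before it. In TXNRD1 the matches begin 99 and 8 bases before the first start and 102 bases before the second, and in KEAP1 they begin 54 and 31 bases before the start. These are descriptions of sequence, and binding was not measured.

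Arrays differed by replicate number in most of these genes, and replicate 3 stood apart. Across genes, the deviations of same-numbered arrays from their group means correlated between 0.277 and 0.942 over all pairs of groups. Those of arrays with different numbers correlated between -0.877 and 0.732, so the ranges overlapped. Replicate number held 71.5% of the sum of squares within groups. GCLM, the modifier subunit of glutamate-cysteine ligase, averaged 9.54 over the 6 arrays of replicate 1, 9.59 over those of replicate 2 and 10.47 over those of replicate 3. Every replicate 3 array of GCLM (10.02 to 10.76) lay above every array of the other replicate numbers (9.38 to 9.95). How many of all genes separated in this way was not counted. SRXN1 averaged 8.0, 8.10 and 8.61 in the 3 replicate numbers, GCLC 8.60, 8.72 and 9.21, and TXNRD1 11.47, 11.74 and 12.06.

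In a fit with replicate number as a block, replicate number passed a limma F test in 6 of 9 members. They were GCLM (adjusted p = 6.67e-06), GCLC (0.000744), SRXN1 (0.00106), MAFG (0.014), TXNRD1 (0.0141) and NFE2L2 (0.0355). It did not pass in HMOX1 (limma adjusted p = 0.15), KEAP1 (0.407) or NQO1 (0.924). Among all genes 46.7% passed. Without all arrays of replicate 1 the test passed in 3 of the 9 (GCLM, GCLC and SRXN1), and MAFG (limma adjusted p = 0.0736), TXNRD1 (0.0607) and NFE2L2 (0.0568) missed it. Without replicate 2 it passed in 5, with NFE2L2 lost (0.0523). Without replicate 3 limma passed 0 genes in this test, with 1493 at an unadjusted p under 0.05. For the members, differences between CsA and control are given first without the block. For the further genes listed at the end, calls come from the fit with the block, and the adjusted p without it stands beside each.

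**Figure D1:**
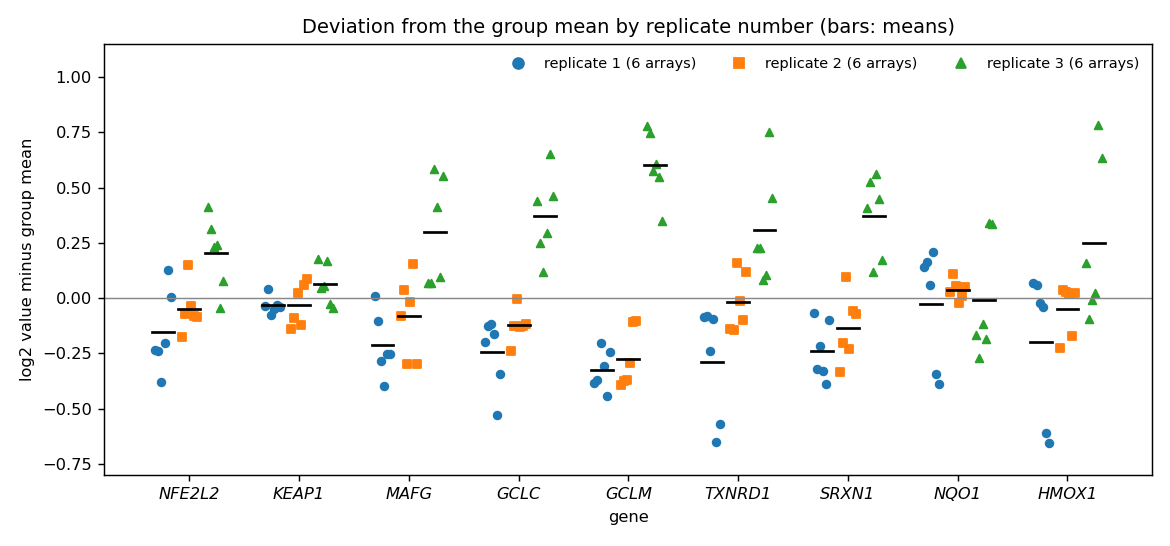
Deviation of each array from the mean of its group (vertical axis, log2 scale) for the 9 tested genes (horizontal axis), with 1 symbol per array, coloured by replicate number, and bars at the means over 6 arrays. Replicate 3 lies above the others in GCLM, GCLC and SRXN1, while the 3 numbers overlap in NQO1 and KEAP1.

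KEAP1, the inhibitor, was lower with CsA at every time and in each of the 9 replicate pairs. The gene had 1 probe set, so no second one could serve as a check. At 12 h its 3 CsA arrays read 8.95, 8.85 and 9.16 (replicates 1, 2 and 3, an order kept below) and its control arrays 9.21, 9.08 and 9.21. At 24 h CsA arrays read 8.72, 8.82 and 8.85 and controls 9.16, 9.09 and 9.38. At 48 h CsA arrays read 8.46, 8.55 and 8.46 and controls 8.86, 8.98 and 8.85. The groups overlapped at 12 h and were separate at 24 and 48 h, with all CsA arrays below all control arrays. Such a separation downward was seen in 5.12% of all genes at 24 h and in 6.77% at 48 h, and 4.42% of all genes were lower in all 9 pairs.

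The KEAP1 difference, CsA minus control, was -0.18 ± 0.11 at 12 h, -0.41 ± 0.11 at 24 h and -0.41 ± 0.11 at 48 h on the log2 scale (± standard error), so that CsA arrays stood at 0.753 of control at 48 h. The adjusted p-values of limma were 1, 0.957 and 0.0864. Averaged over the times the difference was -0.33 ± 0.06 (limma adjusted p = 0.0568). With the replicate block KEAP1 fell at 48 h (limma adjusted p = 0.0234) and on average (limma adjusted p = 0.0127), but not at 12 h (1) or 24 h (0.229). The call at 48 h was lost when control replicate 1 (0.0779) or 2 (0.0507), or CsA replicate 2 (0.0715) or 3 (0.0720), of that time was left out, while the average kept its call without any single array. Without all arrays of replicate number 1, 2 or 3 neither held (limma adjusted p at 48 h 0.174, 0.132 and 0.0856). In bulk RNA, less of a transcript per cell and fewer cells that carry it cannot be told apart.

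In fits on all 18 arrays KEAP1 was the only member to pass the threshold between CsA and control on its brightest probe set. Without the block, 0 of 9 members passed at any time or on average (0 of 9 at 12 h and 1 of 9 in each other case at an unadjusted p under 0.05, which 0.914% of all genes had at 12 h, 3.79% at 24 h, 16% at 48 h and 12.2% on average). Among all genes, limma then passed 0% at 12 h, 0% at 24 h, 0.224% lower and 0.215% higher at 48 h, and 0.00933% lower and 0.0746% higher on average. With the block 1 of 9 passed at 48 h and on average, against 0% of all genes at 12 h, 0.00933% at 24 h, 5.96% lower and 4.8% higher at 48 h, and 2.5% lower and 2.11% higher on average. With the block, 7 of 9 members had an unadjusted p under 0.05 at 48 h, as did 28.1% of all genes.

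NFE2L2, which encodes NRF2 itself, showed differences between CsA and control that did not pass at any time, and rose in control cultures between 24 and 48 h. Its CsA arrays read 11.36, 11.42 and 12.01 at 12 h against 11.35, 11.52 and 11.91 in controls. At 24 h they read 11.48, 12.01 and 12.09 against 11.42, 11.58 and 11.86. At 48 h they read 12.37, 12.17 and 12.20 against 12.28, 12.19 and 12.36. CsA and control overlapped at each time. At 24 h CsA was higher in 3 of 3 pairs, by 0.24 ± 0.20 (limma adjusted p = 0.999), and at 48 h the difference was -0.03 ± 0.20 (limma adjusted p = 0.977).

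In control cells NFE2L2 averaged 11.59 ± 0.28 (SD, n = 3) at 12 h, 11.62 ± 0.22 at 24 h and 12.28 ± 0.08 at 48 h. It rose from 24 to 48 h by 0.66 ± 0.20 (limma adjusted p = 0.0437), a call that 7.32% of all genes shared in that direction. All 3 controls of 48 h lay above the 6 earlier ones, as in 12.1% of all genes. Without the block the call held in 7 of the 18 fits that left out 1 array (limma adjusted p 0.0272 to 0.149) and was lost without each of the 6 control arrays of 24 and 48 h. It was also lost without control replicate 2 of 12 h, CsA replicate 2 of 12 h and each CsA array of 48 h. With the block it held in 18 of 18 (limma adjusted p = 0.00568 with all arrays). A second probe set of NFE2L2 differed by 0.35 ± 0.30 between the same times and did not pass (limma adjusted p = 0.497).

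KEAP1 was lower in older control cultures. Its control mean was 9.21 ± 0.15 (SD, n = 3) at 24 h and 8.90 ± 0.07 at 48 h, and all 3 controls of 48 h lay below the 6 earlier ones, as in 13.3% of all genes. The difference of -0.31 ± 0.11 did not pass without the block (limma adjusted p = 0.0615) and passed with it (0.026), as did 16% of all genes in that direction. With the block the call was lost without control replicate 1 or 3 of 24 h or of 48 h (highest limma adjusted p = 0.125).

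MAFG, a small MAF protein that pairs with NRF2 on DNA, had differences between CsA and control that did not pass at any time. Its CsA arrays read 6.37, 6.28 and 6.43 at 12 h against 6.22, 6.36 and 6.39 in controls. At 24 h they read 6.48, 6.47 and 7.35 against 6.05, 6.43 and 6.86, and at 48 h 7.01, 7.41 and 7.36 against 6.49, 6.44 and 7.30. CsA was higher in 3 of 3 pairs at 24 and at 48 h, and the groups overlapped each time. The difference at 48 h was 0.52 ± 0.27 (limma adjusted p = 0.374; with the block 0.0884), and the pair of replicate 3 differed by 0.06. A dimmer probe set of MAFG, between 3.91 and 5.10 on all arrays, had the opposite sign at 48 h (-0.47 ± 0.21, limma adjusted p = 0.300), so the direction of MAFG depends on the probe set.

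**Figure D2:**
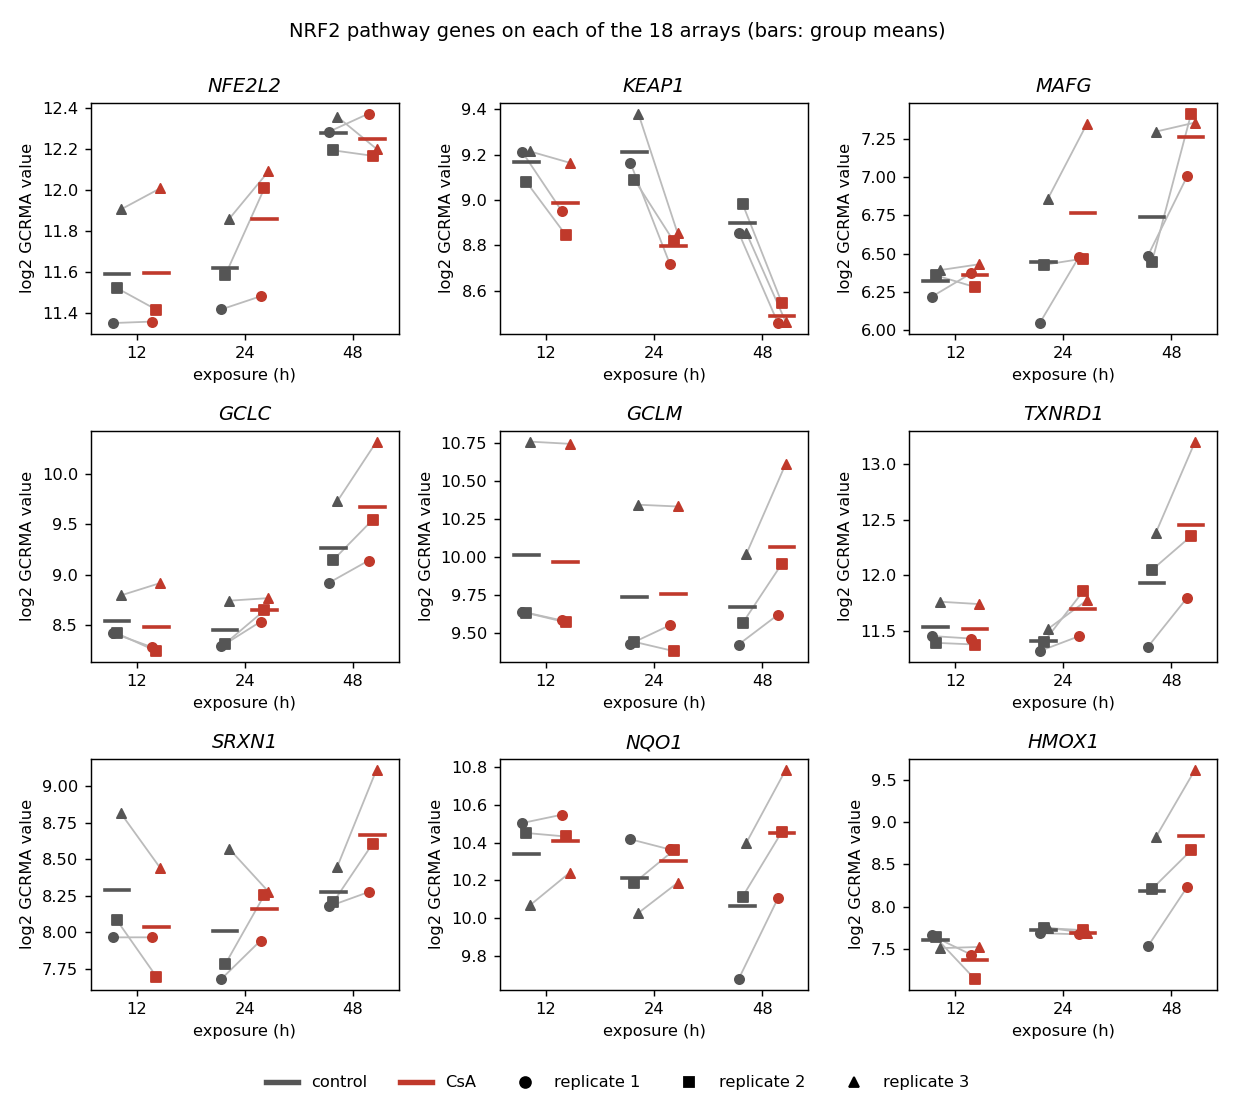
Log2 GCRMA value (vertical axis) of each member on the 18 arrays, by hours of exposure (horizontal axis), with CsA and control in separate colours, a symbol for each replicate number and bars at group means. KEAP1 is lower with CsA at each time, NFE2L2 is highest at 48 h in both treatments, and the arrays of HMOX1 and TXNRD1 spread most at 48 h.

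The enzymes shared a pattern at 48 h. HMOX1, NQO1, GCLC, GCLM, TXNRD1 and SRXN1, and MAFG with them, were higher with CsA in 3 of 3 pairs, which makes 7 of 9 tested members, and 25.7% of all genes showed this. The median difference over the 9 members was 0.39 on the log2 scale at 48 h, against 0.00091 over all genes. It was -0.04 at 12 h and 0.15 at 24 h. The members were chosen with earlier results of these data known, so the comparison with all genes is a description. In the fits on all 18 arrays none of the 7 genes passed the threshold on its brightest probe set, with or without the block, and CsA and control arrays overlapped in each of them. These counts rest on the brightest probe sets. Of 6 other probe sets of these genes with signal above the filter, 3 were higher with CsA in all pairs at 48 h (1 each of GCLC, GCLM and NQO1), and 3 were not (1 each of GCLM, NQO1 and MAFG).

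The sizes at 48 h moved with single arrays. Without CsA replicate 3 of 48 h, in the fit without the block, the difference fell to 0.26 in HMOX1, 0.077 in GCLC, 0.12 in GCLM, 0.15 in TXNRD1 and 0.16 in SRXN1. Without CsA replicate 1 of 48 h it was 0.67 in GCLC, 0.61 in GCLM, 0.85 in TXNRD1, 0.58 in SRXN1 and 0.56 in NQO1. Without control replicate 3 of 48 h it was 0.97 in HMOX1 and 0.79 in MAFG. The lowest value of NQO1 was 0.19, without control replicate 1 of 48 h, and that of MAFG was 0.29, without all arrays of replicate 2. These are the lowest and highest values of the 7 genes over the fits that left out an array or a replicate number. The differences stayed above 0 and none passed in any of these fits (limma adjusted p at least 0.0874, for MAFG without replicate 3).

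GCLC, the catalytic subunit of glutamate-cysteine ligase, which carries out the limiting step of glutathione synthesis, read 8.28, 8.24 and 8.92 with CsA and 8.42, 8.42 and 8.79 in control at 12 h. At 24 h it read 8.53, 8.65 and 8.77 with CsA and 8.29, 8.31 and 8.74 in control. At 48 h CsA arrays read 9.14, 9.54 and 10.32 and controls 8.92, 9.15 and 9.73. Both treatments were highest at 48 h, and within each the replicate 3 array was the highest. GCLC differed by 0.20 ± 0.28 at 24 h and 0.40 ± 0.28 at 48 h (limma adjusted p = 0.556; with the block 0.0926). Without replicate 3 it was 0.31 ± 0.14 at 48 h (limma adjusted p = 0.255).

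A second probe set of GCLC gave larger differences. It was higher with CsA in 3 of 3 pairs at 24 h and at 48 h, by 0.51 ± 0.23 and 0.61 ± 0.23. In a model of all 19290 probe sets past the filter, chosen after the data were seen, limma did not pass it at 48 h (adjusted p = 0.212). With the block in that model it rose at 48 h (limma adjusted p = 0.0234) and on average (0.0336), where the brightest probe set had 0.101 and 0.24. In that model 4.58% of probe sets rose at 48 h and 2.01% on average.

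GCLC was also higher in older control cultures. Its control mean went from 8.45 ± 0.25 (SD, n = 3) at 24 h to 9.27 ± 0.42 at 48 h. The difference of 0.82 ± 0.28 missed the threshold without the block (limma adjusted p = 0.068) and passed with it (0.00125), as did 16.6% of all genes in that direction, also without any single array. The second probe set rose by 0.90 ± 0.23 without the block (limma adjusted p = 0.0222), as did 6.41% of all probe sets. All 3 controls of 48 h lay above the 6 earlier ones.

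GCLM, the modifier subunit, whose promoter stretch with the core match is printed above, read 9.58, 9.57 and 10.74 with CsA and 9.64, 9.63 and 10.76 in control at 12 h. At 24 h it read 9.55, 9.38 and 10.33 with CsA and 9.43, 9.44 and 10.34 in control, and at 48 h 9.62, 9.95 and 10.61 with CsA and 9.42, 9.56 and 10.02 in control. On this brightest probe set pairs were almost equal at 12 h and 24 h, with 0.12 as the largest pair difference, and the gap at 48 h was 0.20, 0.39 and 0.59 in the 3 pairs. The difference at 48 h was 0.39 ± 0.41 (limma adjusted p = 0.729), with a standard error of 0.13 and an adjusted p of 0.0718 with the block. The other 2 probe sets of GCLM differed by 0.62 ± 0.39 and 0.59 ± 0.32 at 48 h and did not pass (limma adjusted p = 0.497 and 0.396). The first of them was higher with CsA by 0.052, 0.33 and 0.44 in the 3 pairs at 12 h and differed by 0.08, -0.15 and 0.36 at 24 h and by 0.0089, 1.21 and 0.65 at 48 h. The second differed by 0.06, 0.078 and 0.23 at 12 h, by -0.21, 0.03 and 0.087 at 24 h and by -0.12, 1.48 and 0.40 at 48 h. The 3 probe sets therefore gave different signs at 12 h, and one had a pair below 0 at 48 h.

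TXNRD1, the cytosolic thioredoxin reductase, a selenoprotein with core matches at both starts, read 11.43, 11.38 and 11.74 with CsA and 11.45, 11.39 and 11.76 in control at 12 h. At 24 h it read 11.45, 11.86 and 11.78 with CsA and 11.32, 11.40 and 11.52 in control. At 48 h CsA arrays read 11.80, 12.35 and 13.20 and controls 11.36, 12.05 and 12.38. The CsA array was slightly lower in each pair at 12 h, by at most 0.02, and higher in each pair at 24 and 48 h. TXNRD1 differed by 0.28 ± 0.30 at 24 h and 0.52 ± 0.30 at 48 h (limma adjusted p = 0.435; with the block 0.119). Without replicate 3, whose pair differed by 0.82, it was 0.37 ± 0.25 at 48 h and did not pass.

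SRXN1, sulfiredoxin, which restores overoxidized peroxiredoxins, read 7.97, 7.70 and 8.44 with CsA and 7.97, 8.08 and 8.81 in control at 12 h. At 24 h it read 7.94, 8.26 and 8.28 with CsA and 7.68, 7.78 and 8.57 in control, and at 48 h 8.28, 8.61 and 9.11 with CsA and 8.18, 8.21 and 8.45 in control. At 24 h the pairs disagreed in sign, with replicate 3 lower by 0.29. The difference at 48 h was 0.39 ± 0.29 (limma adjusted p = 0.584; with the block 0.12), and 0.25 ± 0.16 without replicate 3 (0.379).

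NQO1, the quinone reductase often used to read out NRF2 activity, read 10.55, 10.43 and 10.24 with CsA and 10.50, 10.45 and 10.07 in control at 12 h. At 24 h it read 10.36, 10.36 and 10.19 with CsA and 10.42, 10.19 and 10.03 in control, and at 48 h 10.10, 10.46 and 10.79 with CsA and 9.68, 10.11 and 10.40 in control. The 3 pairs at 48 h gave similar gaps of 0.43, 0.34 and 0.39. The difference there was 0.39 ± 0.20 (limma adjusted p = 0.376; with the block 0.244). Of its other 2 probe sets, one differed by 0.55 ± 0.18 (limma adjusted p = 0.163) and one by 0.01 ± 0.17 (0.992), so the size depended on the probe set.

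HMOX1, heme oxygenase 1, which breaks heme down to biliverdin, iron and carbon monoxide, had the largest difference of the members at 48 h. It read 7.43, 7.14 and 7.52 with CsA and 7.66, 7.63 and 7.51 in control at 12 h. At 24 h it read 7.67, 7.72 and 7.69 with CsA and 7.69, 7.75 and 7.75 in control, and at 48 h 8.23, 8.67 and 9.62 with CsA and 7.53, 8.21 and 8.82 in control. The 6 arrays of 24 h lay between 7.67 and 7.75, whereas those of 48 h spread from 7.53 to 9.62 with replicate 1 lowest and replicate 3 highest in both treatments. The difference at 48 h was 0.66 ± 0.31, a ratio of 1.57 (limma adjusted p = 0.32; with the block 0.131). When only the 6 arrays of 48 h were fitted with replicate pairs, HMOX1 passed (limma adjusted p = 0.0413), in a fit that passed 2.8% of all genes higher and 4.89% lower, and KEAP1 did not (0.0659).

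GPX2, a glutathione peroxidase of epithelia, was at background. Its brighter probe set read between 2.43 and 2.58 on all 18 arrays and the other between 2.09 and 2.12, while array medians lay between 2.86 and 2.92. GCLC, NFE2L2 and TXNRD1 each had a further probe set at background, between 2.23 and 2.40, which is not described further. GPX2 was not tested, and the core match in its promoter stretch stands beside a signal near background.

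**Figure D3:**
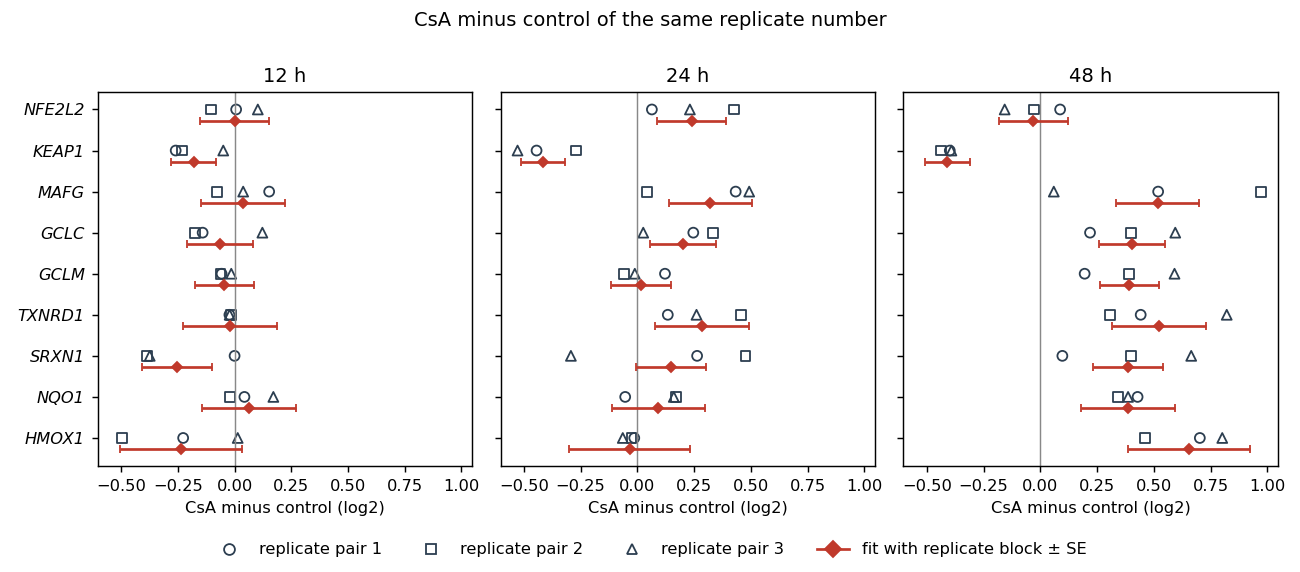
CsA minus control of arrays with the same replicate number (horizontal axis, log2 scale) for the 9 tested genes (vertical axis) at 12, 24 and 48 h, with open symbols for the 3 pairs and filled diamonds for the fitted difference with its standard error from the fit with the replicate block. KEAP1 lies left of 0 in all 9 pairs, and at 48 h 7 genes lie right of 0 in all 3 pairs, with the highest mean in HMOX1.

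Whether the CsA difference itself changed with time was tested with an F test over the 3 times. None of the 9 members passed (limma adjusted p at least 0.438 with or without the block), while 0.0373% of all genes did, and 0.028% with the block. Over the control arrays alone, 14.2% of all genes passed such a test, and 33.5% with the block. NFE2L2 passed it both ways (limma adjusted p = 0.0475; with the block 0.00513), and KEAP1 (0.043) and GCLC (0.00164) only with the block.

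Some members were closely correlated. Over the 18 arrays, which share treatment, time and replicate number, Pearson's r was 0.94 between GCLC and TXNRD1, 0.924 between HMOX1 and TXNRD1 and 0.919 between GCLC and HMOX1. After group means were taken out, the values were 0.912, 0.912 and 0.824. GCLM and SRXN1 correlated at 0.787 over all arrays and at 0.9 within groups. NQO1 had r between -0.37 and 0.406 to each other member over all arrays, while within groups it correlated at 0.779 with HMOX1 and 0.564 with TXNRD1, and at -0.528 with NFE2L2. KEAP1 was most negative against MAFG (-0.598), HMOX1 (-0.587), GCLC (-0.576) and TXNRD1 (-0.575), and within groups these became 0.302, 0.0905, 0.429 and 0.284. Against NFE2L2 it had -0.474 over all arrays and 0.613 within groups. These are descriptions over 18 arrays.

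Of all tested genes, those most like GCLC over the 18 arrays were IRF1 (r = 0.971) and EXOSC1 (0.962), and those most like TXNRD1 were SH3GLB1 (0.955) and again EXOSC1 (0.946). HMOX1 was closest to LOC105376805 (0.956) and PPIE (0.953), and GCLM to HCCS (0.961) and HLA-E (0.952). NFE2L2 was closest to CCDC59 (0.933) and ERN1 (0.925), and KEAP1 to NDUFS3 (0.905) and MRPS25 (0.903). SRXN1 was closest to RRN3P1 (0.934) and ABLIM3 (0.92), MAFG to COMMD7 (0.905) and ARFGAP3 (0.886), and NQO1 to MAPK13 (0.869) and BTNL3 (0.866). No other member was among the closest genes of a member.

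Around these members, 131 further genes of the antioxidant system and its neighbours were listed, of which 105 were tested. Without the block 1 of them passed at 48 h, and 0 at 12 h, at 24 h or on average (0, 10 and 20 at an unadjusted p under 0.05, which 0.914%, 3.79% and 12.2% of all genes had). IDH1, the cytosolic isocitrate dehydrogenase that supplies NADPH, rose at 48 h by 0.71 ± 0.14 (limma adjusted p = 0.0449; with the block 0.0118). That call without the block held in 3 of the 18 fits without 1 array (0.00419 to 0.237) and was lost in each fit that left out an array of 12 h or 24 h, CsA replicate 2 or 3 of 48 h, or control replicate 1 of 48 h. With the block 9 of 105 (8.57%) rose and 7 (6.67%) fell at 48 h, beside 4.8% and 5.96% of all genes. Without CsA replicate 2 of 48 h, 16 of these 16 calls were lost, and without control replicate 1 of 48 h 14 were (all but DPP3 and SELENOS), while the calls over all genes fell from 1153 to 65 and to 134. None of the 16 held in all 18 fits that left out 1 array.

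Among genes that supply NADPH, the reductant for TXNRD1, NQO1 and glutathione reductase, with the block 2 of 8 rose at 48 h (IDH1 and malic enzyme ME1, by 0.48 ± 0.11, limma adjusted p = 0.0206, and 0.226 without the block) and 1 fell (NNT, the mitochondrial transhydrogenase, by 0.65, limma adjusted p = 0.0346, and 0.526 without). The median of the list was 0.12. With the block 4.8% of all genes rose at 48 h and 5.96% fell.

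In the list of selenoproteins and their synthesis, 4 of 11 rose at 48 h with the block and 0 fell, with a median of 0.28. Among all genes the shares were 4.8% and 5.96%. SELENOM differed by 1.16 ± 0.28, SELENOS by 0.98 ± 0.16, SELENOK by 0.61 ± 0.16 and SEPHS2, which makes selenophosphate, by 0.54 ± 0.14 (with the block, limma adjusted p = 0.0232, 0.00716, 0.0324 and 0.0289 in this order). SELENOM, SELENOS and SELENOK are proteins of the endoplasmic reticulum, unlike the cytosolic TXNRD1. Without the block their adjusted p-values were 0.0722, 0.133, 0.231 and 0.103.

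In the thioredoxin and peroxiredoxin list, 1 of 15 rose and 1 fell at 48 h with the block, beside 4.8% and 5.96% of all genes. PRDX4, a peroxiredoxin of the endoplasmic reticulum, differed by 0.47 ± 0.09 (limma adjusted p = 0.0127, and 0.0563 without the block). MSRB3, a methionine sulfoxide reductase, differed by -0.78 ± 0.23 (limma adjusted p = 0.0443, and 0.281 without), a call that held in 4 of the 18 fits without 1 array. TXNIP, the inhibitor of thioredoxin, fell on average by 1.12 with the block (limma adjusted p = 0.0252, and 0.176 without). At 24 h it differed by -2.42 ± 0.41 with the block and did not pass (limma adjusted p = 0.0908, and 0.893 without).

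Glutathione genes other than GCLC and GCLM had a median of -0.06 at 48 h over 24 tested. With the block SLC3A2, the heavy chain of the cystine transporter, rose by 1.09 ± 0.29 (limma adjusted p = 0.0356, and 0.104 without). GPX3, a secreted peroxidase, fell by 0.75 (limma adjusted p = 0.0471, and 0.73 without), and GSR, glutathione reductase, by 0.48 (0.0435, and 0.535 without). The calls of GPX3 and GSR with the block held in 3 and 7 of the 18 fits without 1 array. SLC7A11, the cystine carrier and a target of both NRF2 and ATF4, differed by 3.67 ± 0.41 at 24 h with the block and passed (limma adjusted p = 0.00691, and 0.122 without). That call was lost without control replicate 1 of 24 h (limma adjusted p = 0.0842). SLC7A11 differed by 0.51 at 48 h, against 0.40 in GCLC and 0.39 in GCLM. Both treatments of SLC7A11 were higher at 48 h than at 24 h. The control mean went from 4.61 to 10.03 and the CsA mean from 8.28 to 10.54.

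Of the 8 ATF4 genes listed, 8 had a positive difference at 24 h, as did 48.0% of all genes. With the block 1 of the 8, SLC7A11, passed at 24 h, beside 0.00933% of all genes. The median of the 8 was 1.55 at 24 h, against 0.15 in the members, and 0.43 at 48 h. This list includes SLC7A11, and was chosen with its earlier result in these data known. ATF4 rose on average by 0.51 ± 0.08 with the block (limma adjusted p = 0.0127, and 0.0772 without).

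Among regulators of NRF2 other than KEAP1 and MAFG, DPP3, a KEAP1-binding peptidase, fell at 48 h with the block by 0.59 (limma adjusted p = 0.0111, and 0.254 without). BACH1, a repressor at the same DNA elements, rose on average with the block by 0.27 (limma adjusted p = 0.0344, and 0.475 without; held in 7 of the 18 fits without 1 array). The 12 regulators had a median of -0.07 at 48 h. Detoxification genes and other NRF2 targets had 1 of 20 that rose with the block (TRIM16, 0.84 ± 0.22, limma adjusted p = 0.0300, and 0.104 without) and 1 that fell (CBR3, -0.55 ± 0.16, 0.0426, and 0.315 without). Of all genes, 4.8% rose at 48 h with the block and 5.96% fell. The call of CBR3 held in 5 of the 18 fits without 1 array. AKR1C1, an aldo-keto reductase that responds to NRF2, differed by -1.14 ± 0.41 at 48 h (limma adjusted p = 0.0913 with the block, and 0.634 without), opposite in sign to NQO1.

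Of 4 genes for superoxide and peroxide, 0 were higher at 48 h, while 50.2% of all genes were. PON2, a membrane lactonase, fell with the block by 0.53 (limma adjusted p = 0.0229, and 0.0763 without), and SOD2, the mitochondrial superoxide dismutase, differed by -0.65 ± 0.20 (0.0512, and 0.754 without). CAT differed by -0.30 ± 0.25 (limma adjusted p = 0.461 with the block, and 0.813 without). SOD1 was close to 0, at -0.02 ± 0.09 (limma adjusted p = 0.899 with the block, and 0.957 without). Of 7 heme and iron genes other than HMOX1, 0 passed limma (3 at an unadjusted p under 0.05 at 48 h with the block, as 28.1% of all genes had). BLVRB, a biliverdin reductase downstream of heme breakdown, differed by 0.64 ± 0.23 at 48 h (limma adjusted p = 0.0975 with the block, and 0.256 without). With the block 10 of the 105 genes passed on average, 8 higher (7.62%) and 2 lower (1.9%), beside 2.11% and 2.5% of all genes. Of these calls 2, ATF4 and SLC7A11, held in all 18 fits that left out 1 array. Without CsA replicate 1 of 12 h 8 of the 10 were lost, and without control replicate 2 of 12 h 7 were.

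**Figure D4:**
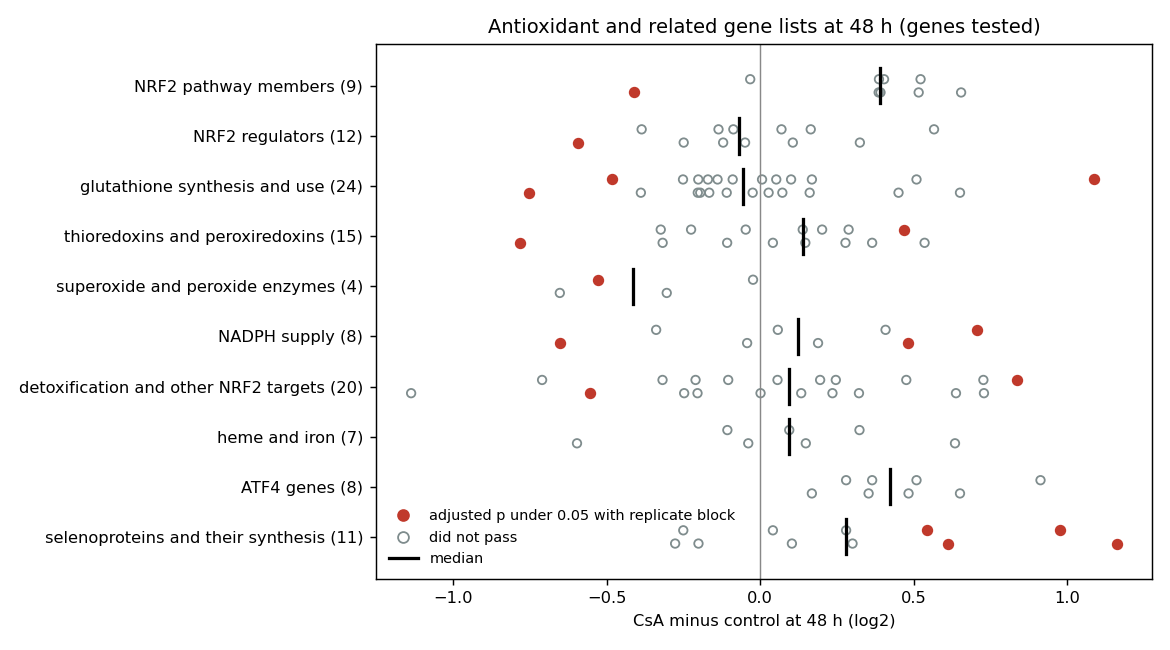
CsA minus control at 48 h (horizontal axis, log2 scale) of each tested gene in the NRF2 pathway members and in 9 lists of related genes (vertical axis, number tested in brackets), with filled points for genes that passed limma with the replicate block and a bar at each median. The members have a median of 0.39 with KEAP1 as the filled point, and the superoxide and peroxide list lies below 0, with SOD1 at -0.02.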

How the data were processed

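RNA of HK-2 cells was measured on 18 Affymetrix arrays in 6 groups of 3, as labelled by treatment, time and replicate number. The authors' deposited values, taken as log2 from their range (array medians 2.86 to 2.92) since no label states the log base, were made with GCRMA (background correction, normalization between arrays and one summary per probe set) according to the submitters' processing notes, which give no version. No source used here says which arrays were normalized jointly. GCRMA compresses differences near background, and the number of arrays limits the precision.

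Of 54675 probe sets, the platform annotation gave 41091 exactly 1 symbol, 1801 several and 11721 none, and 62 were array controls. Symbols were checked against RefSeq by gene identifier, which changed 0. For each gene the brightest probe set with a group mean of at least 4 was tested. Differences were fitted with limma 3.58.1 in R 4.3.3 (lmFit, eBayes) on all 18 arrays with a term per group, and adjusted by Benjamini-Hochberg over 10717 genes at a threshold of 0.05. Errors beside a difference are standard errors of the fit and those beside a mean are SDs. The code was tested on simulated data. Python 3.11.15, pandas 2.3.3 and matplotlib 3.10.9 made tables and figures.

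Same-numbered arrays deviated together in every pair of groups (lowest correlation 0.277), so replicate numbers were treated as pairs, on the evidence of the values since no label says so. Some arrays of different numbers also deviated together (highest correlation 0.732). Of the 18 arrays, 14 correlated best with their own number. The named genes were all members, each gene of the further lists past the threshold, and the 2 genes closest to each member. The 2 highest and 2 lowest average differences of each further list were also picked out. Of these only some are described, and others, such as NFE2L1, ABHD4, ATF3, SLC6A6 and TFRC, are not. Members and lists were chosen with earlier results of these data known. Alternatives covered the level filter, a floor, normalization, the probe set rule, moderation, arrays of one time, the replicate block and each array left out.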

Additional observations from a re-analysis of the deposited data

Results flagged for a closer look

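These 4 results drew attention because the 3 pairs of one time all had the opposite sign to the 3 pairs of another time. The test of each difference did not pass. HMOX1 was lower with CsA in each pair at 24 h (-0.01, -0.03 and -0.06) and higher in each at 48 h (0.70, 0.46 and 0.80), and its CsA effect at 48 h minus that at 24 h was 0.69 (limma adjusted p = 0.938; with the replicate block 0.441). GCLM was lower in each pair at 12 h (-0.06, -0.06 and -0.01) and higher in each at 48 h on its brightest probe set, and the effects differed by 0.44 (limma adjusted p = 1; with the block 0.383). Its other 2 probe sets were higher with CsA in each pair at 12 h (0.052, 0.33 and 0.44, and 0.06, 0.078 and 0.23), and one of them was lower in replicate 1 at 48 h (-0.12), so the change of sign was seen on 1 of 3 probe sets. TXNRD1 was lower by about 0.02 in each pair at 12 h and higher in each pair later. Its effect at 24 h exceeded that at 12 h by 0.30 (limma adjusted p = 1; with the block 1), and its effect at 48 h exceeded that at 12 h by 0.54 (limma adjusted p = 1; with the block 0.48).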

How the results depend on the processing

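The fits named as using all probe sets, or the replicate block with arrays left out, were chosen after the data were seen. Without the block limma passed 47 genes at 48 h and 9 on average. At 48 h it passed 18 with the stricter filter of 6, 28 with no filter, 73 with trend and robust moderation, 82 with the mean of probe sets and 0 on the arrays of 48 h alone. The average passed 14 genes with 75th percentile centring, 16 with no filter and 34 with the mean of probe sets. With the replicate block 1 gene passed at 24 h, 1153 at 48 h (824 on the 6 arrays of 48 h), 494 on average and 3594 over time in controls (1517 without). In fits on all 18 arrays the block changed the calls of KEAP1 and GCLC given in the report and no other member's call. On the 6 arrays of 48 h it changed the call of HMOX1. The cause of these changes was not tested.

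Leaving out arrays, 0 to 1 genes passed at 12 h, 0 to 1 at 24 h, 3 to 563 at 48 h (14 to 1689 with the block), 0 to 164 on average (2 to 975 with the block), 0 to 16 in the difference between times, 208 to 1925 over time in controls (1961 to 3943 with the block) and 0 to 5104 for replicate number. KEAP1 kept its negative sign in each CsA comparison under every alternative run. Its average passed without the block when probe sets were averaged (limma adjusted p = 0.0269) or no filter was set (0.0356). The average also passed when CsA replicate 3 of 12 h (0.0422) or CsA replicate 1 of 48 h (0.0307) was left out. Since KEAP1 had 1 probe set, averaging probe sets or dropping the filter left its difference at -0.33. These 2 settings changed only the other genes in the fit. The NFE2L2 rise in controls was lost with 75th percentile centring (limma adjusted p = 0.0605), no filter (0.0776) and the mean of probe sets (0.183). That mean took in a probe set of NFE2L2 at background, which by itself makes the difference smaller.

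Small differences changed sign. At 12 h they became -0.011 for NFE2L2 with quantile normalization, 0.12 for GCLM, 0.0030 for TXNRD1 and -0.0015 for MAFG with the mean of probe sets, and 0.0081 for TXNRD1 with 75th percentile centring, which also gave 0.0041 for NFE2L2 at 48 h. With arrays left out, differences at 12 h ranged over -0.28 to 0.061 for GCLC, -0.43 to 0.33 for GCLM, -0.0196 to 0.0955 for MAFG, -0.20 to 0.16 for NFE2L2, -0.0708 to 0.15 for NQO1, -0.46 to 0.0109 for SRXN1 and -0.13 to 0.0935 for TXNRD1. At 24 h they ranged over -0.27 to 0.32 for GCLM and -0.0166 to 0.43 for SRXN1, and at 48 h over -0.0949 to 0.0304 for NFE2L2. Averages ranged over -0.0079 to 0.25 for GCLM and -0.0021 to 0.23 for HMOX1. In controls, 48 h minus 12 h ranged over -0.53 to 0.0338 for GCLM and -0.17 to 0.25 for SRXN1, and 48 h minus 24 h over -0.24 to 0.23 for GCLM and -0.41 to 0.15 for NQO1. Signals near background limit GPX2 and the dim probe set of MAFG. They also limit the mean of probe sets in GCLC, NFE2L2 and TXNRD1, which took in a probe set at background.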
